A study of Mus musculus with 3 samples.

Results

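The 9 genes described here were S1pr1, Klf2, Ccr7, Lef1, Cd69, Itgae, Itga4, Itgb7 and Rgs1, chosen by name from the 32285 genes of the count tables. All but Lef1, a gene of naive and resting T cells, take part in whether a lymphocyte leaves a tissue, returns to a lymph node or stays. Earlier results of these data were known when the genes were chosen. The 9 genes were measured in live CD45+ cells, which are immune cells, sorted from the pancreatic islets of wild-type female NOD mice, a strain in which T cells destroy the insulin-producing beta cells. By the study's methods, islets from 2 to 3 mice of 15 to 16 weeks were pooled for each of 3 single-cell libraries. The study's figure legend for these data gives an age range that starts earlier. The libraries came from 2 independent experiments, and none had another genotype or treatment. Replicates 1, 2 and 3 held 33851381, 74775394 and 80806452 UMIs (unique molecular identifiers, each counting 1 captured RNA molecule). Their medians were 4230, 6415 and 5521 UMIs per cell, so that replicate 1 was the shallowest. In the 7 cell classes below, the median mitochondrial share was 1.74 to 2.06% in replicate 1 and 3.47 to 4.47% in the others. The part of this difference in the results was not tested.

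A T cell enters a lymph node with the help of the chemokine receptor CCR7, and leaves it along a gradient of sphingosine 1-phosphate (S1P) that it reads with S1PR1. The transcription factor KLF2 drives S1pr1, and LEF1 is a transcription factor of naive and resting T cells. CD69 binds S1PR1 and takes it off the cell surface, the integrin chain CD103 (Itgae) pairs with the integrin chain beta 7 (Itgb7) to hold cells to E-cadherin on epithelium, alpha 4 (Itga4) pairs with beta 7 or beta 1 to bring cells out of the blood, and RGS1 dampens signalling of chemokine and S1P receptors through their G proteins. S1pr1, Klf2 and Ccr7 are therefore called recirculation genes below, and Cd69, Itgae and Rgs1 residency genes, while Itga4 and Itgb7 serve both. Lef1 is counted with the recirculation genes as a gene of naive and resting cells, so its level alone is no measure of recirculation. The part of naive cells in the differences below was not tested.

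Of 26947 cells, 26142 had at least 1000 UMIs and under 10% mitochondrial UMIs. CD8 T cells had a Cd3e UMI, at least 2 UMIs of Cd8a and Cd8b1 together and none of Cd4. CD4 T cells had Cd3e and Cd4 UMIs and none of Cd8a, Cd8b1 or Foxp3. Treg, which are regulatory T cells, had Cd3e and Foxp3 UMIs, and B cells had at least 2 Cd79a UMIs and none of Cd3e. Each T class was divided into Pdcd1-positive cells, with at least 1 UMI of Pdcd1 (the gene of the inhibitory receptor PD-1), and Pdcd1-negative cells with 0. The 7 classes held 15605 cells, which were 2133 Pdcd1-negative and 1066 Pdcd1-positive CD8 T cells, 3855 and 2003 CD4 T cells, 724 and 888 Treg, and 4936 B cells. A further 59 cells met both the CD8 T and the Treg definition and were left out of both.

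The classes carried the RNA of their names. The 6 T-cell markers that defined no class summed to 2049 to 4380 CPM (UMIs of a gene scaled to 1000000 UMIs of the class) in the T classes and to 151 to 244 CPM in B cells. The 5 B-cell markers summed to 2166 to 2365 CPM in B cells and to 75.1 to 540 CPM in T classes, highest in Treg. Plasma-cell RNA ranged from 81.0 to 1742 CPM in T classes, the 6 macrophage markers from 8.43 to 221 CPM, the 4 dendritic-cell markers from 1.99 to 20.5 CPM, the 2 gamma-delta T markers from 0 to 22.9 CPM and the 6 islet endocrine markers from 13.5 to 103 CPM, with all T classes of replicate 1 above those of the other libraries. Between 12 and 29 cell barcodes were shared by pairs of libraries. The part of this RNA in the results below was not tested, apart from leaving out T cells with a UMI of Cd79a, Ms4a1, Lyz2 or C1qa.

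The RefSeq promoter table (GRCm38.p6) matched 4 of the 9 genes, Klf2, Lef1, Itga4 and Itgb7. The 250 bases before the start listed there are shown for Klf2 and Lef1, whose levels followed each other most closely of all pairs of members, and for Itga4, which moved the other way. Capitals mark CACCC (the box that KLF factors bind) and GGGCGG (the GC box of Sp and KLF factors), on either strand. For Lef1 the first of 4 listed starts is given. Listed starts differ from the gene positions given further below, which come from another annotation. The Klf2 window runs past the gene start of that annotation (72319033), and its marked GGGTG lies after that start. The Lef1 window ends short of the gene start there (131110471).
Klf2, chr8:72318812-72319061, plus strand: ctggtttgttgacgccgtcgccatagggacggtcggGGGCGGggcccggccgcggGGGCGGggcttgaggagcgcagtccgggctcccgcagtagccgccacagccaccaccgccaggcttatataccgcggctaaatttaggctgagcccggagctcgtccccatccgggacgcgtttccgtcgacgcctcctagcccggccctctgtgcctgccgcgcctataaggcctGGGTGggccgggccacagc
Lef1, chr3:131110047-131110296, plus strand: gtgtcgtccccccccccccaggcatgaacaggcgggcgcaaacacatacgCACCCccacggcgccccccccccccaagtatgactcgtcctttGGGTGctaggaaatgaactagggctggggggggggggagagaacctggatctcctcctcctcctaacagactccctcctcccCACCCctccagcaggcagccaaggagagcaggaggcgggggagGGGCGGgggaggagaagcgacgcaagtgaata
Itga4, chr2:79255176-79255425, plus strand: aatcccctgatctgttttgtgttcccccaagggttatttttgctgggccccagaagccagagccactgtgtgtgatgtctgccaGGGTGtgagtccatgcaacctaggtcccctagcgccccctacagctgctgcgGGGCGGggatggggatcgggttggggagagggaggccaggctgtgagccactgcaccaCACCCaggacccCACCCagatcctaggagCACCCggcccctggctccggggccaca

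The Klf2 window held 1 CACCC box and 2 GC boxes. The Lef1 window held 3 CACCC boxes and 1 GC box, the Itga4 window 4 and 1, and no matches overlapped each other. Of 32851 promoter windows of this length, 52.0% held CACCC and 32.7% held GGGCGG. The letters GTAAACA (bound by FOXO factors) and CTTTGAT (bound by TCF and LEF factors), present in 3.17% and 3.21% of windows, were in none of these 3 windows.

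The first comparison asked whether the 9 genes differed between Pdcd1-positive and Pdcd1-negative CD8 T cells of the same libraries. All 4 recirculation genes were lower in the Pdcd1-positive cells, Rgs1 and Itga4 were higher, and Cd69, a residency gene, was lower. In edgeR's quasi-likelihood test on UMIs summed per library and class, 7 of the 9 members passed an adjusted p of 0.05, 2 higher and 5 lower, where 10.6% of the 11259 genes tested passed (5.12% higher and 5.47% lower). Their median log2 fold change was -0.70, against 0.01 over all genes.

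S1pr1 (chr3:115710433-115715072, minus strand; GRCm38, as for the other genes) stood at 215, 330 and 314 CPM in Pdcd1-negative CD8 T cells of replicates 1, 2 and 3, and at 70.7, 178 and 148 CPM in Pdcd1-positive cells. The Pdcd1-positive level was lower in every library and the groups did not overlap. The difference was 2.45-fold (log2 fold change -1.29 ± 0.18 (SE), adjusted p = 0.000165).

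Klf2 (chr8:72319033-72321656, plus strand), the factor that drives S1pr1, fell with it. Its level was 398, 558 and 500.3 CPM in Pdcd1-negative CD8 T cells and 159, 238 and 198 CPM in Pdcd1-positive cells, again with no overlap. It was 2.73-fold lower (log2 fold change -1.45 ± 0.22 (SE), adjusted p = 0.000326).

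Lef1 (chr3:131110471-131224356, plus strand) had the largest difference of the members in CD8 T cells. It was at 203, 379 and 399 CPM in Pdcd1-negative and at 48.7, 124 and 136 CPM in Pdcd1-positive cells. The 3 libraries each showed the drop, and replicate 1 was lowest in both groups. The difference was 3.61-fold (log2 fold change -1.85 ± 0.18 (SE), adjusted p = 6.16e-06).

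Ccr7 (chr11:99144196-99155077, minus strand), which leads cells into lymph nodes, had the smallest difference of the 4 recirculation genes. Pdcd1-negative CD8 T cells were at 501, 589 and 617 CPM and Pdcd1-positive cells at 325, 374 and 446 CPM. The groups did not overlap, and the log2 fold change was -0.73 ± 0.11 (SE, adjusted p = 0.00027).

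Cd69 (chr6:129267325-129275436, minus strand), induced by antigen and by interferon and kept on by many resident cells, was at 125, 110 and 108 CPM in Pdcd1-negative and at 74.4, 75.8 and 82.4 CPM in Pdcd1-positive CD8 T cells. Its level was thus lower, not higher, in the Pdcd1-positive cells of all 3 libraries (log2 fold change -0.70 ± 0.11 (SE), adjusted p = 0.000495). Without replicate 2 the adjusted p was 0.0577.

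Rgs1 (chr1:144242296-144249242, minus strand) was the residency gene that rose. It was at 205, 144 and 163 CPM in Pdcd1-negative and at 354, 355 and 326 CPM in Pdcd1-positive CD8 T cells, with no overlap. It was 1.85-fold higher (log2 fold change 0.89 ± 0.14 (SE), adjusted p = 0.000392).

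Itga4 (chr2:79255426-79333123, plus strand) was at 214, 110 and 133 CPM in Pdcd1-negative and at 242, 249 and 241 CPM in Pdcd1-positive CD8 T cells. The Pdcd1-positive values lay close together, while the Pdcd1-negative value of replicate 1 stood well above those of the other libraries. The log2 fold change was 0.60 ± 0.14 (SE, adjusted p = 0.00759), and it no longer passed without replicate 2 (0.39, adjusted p = 0.327) or without replicate 3 (0.53, adjusted p = 0.204).

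The integrin chains of the CD103 receptor did not pass. Itgae (chr11:73090583-73147446, plus strand) was at 23.5, 9.87 and 7.37 CPM in Pdcd1-negative and at 18.7, 10.7 and 9.93 CPM in Pdcd1-positive CD8 T cells, overlapping groups whose log2 difference of -0.06 had a 95% interval of -0.46 to 0.34. Itgb7 (chr15:102215995-102231944, minus strand) was at 115, 73.1 and 64.8 CPM and at 118, 101 and 79.0 CPM, with a log2 difference of 0.13 and an interval of -0.08 to 0.33. Both genes were highest in replicate 1 in each group.

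Depth and markers of other cell types moved with the CD8 groups. The 4 NK-cell markers, among them Eomes, which CD8 T cells also use, summed to 246 to 359 CPM in Pdcd1-positive and to 95.1 to 144 CPM in Pdcd1-negative CD8 T cells. The Treg markers summed to 411 to 560 against 146 to 373 CPM and the gamma-delta T markers to 11.7 to 22.9 against 2.98 to 10.7 CPM. Their part in the results was not tested. Median depth was 5865 to 8657 UMIs in Pdcd1-positive and 4896 to 7309 in Pdcd1-negative cells. Where cells were thinned to 2000 UMIs before the split, the members still gave 2 higher and 5 lower calls.

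**Figure D1:**
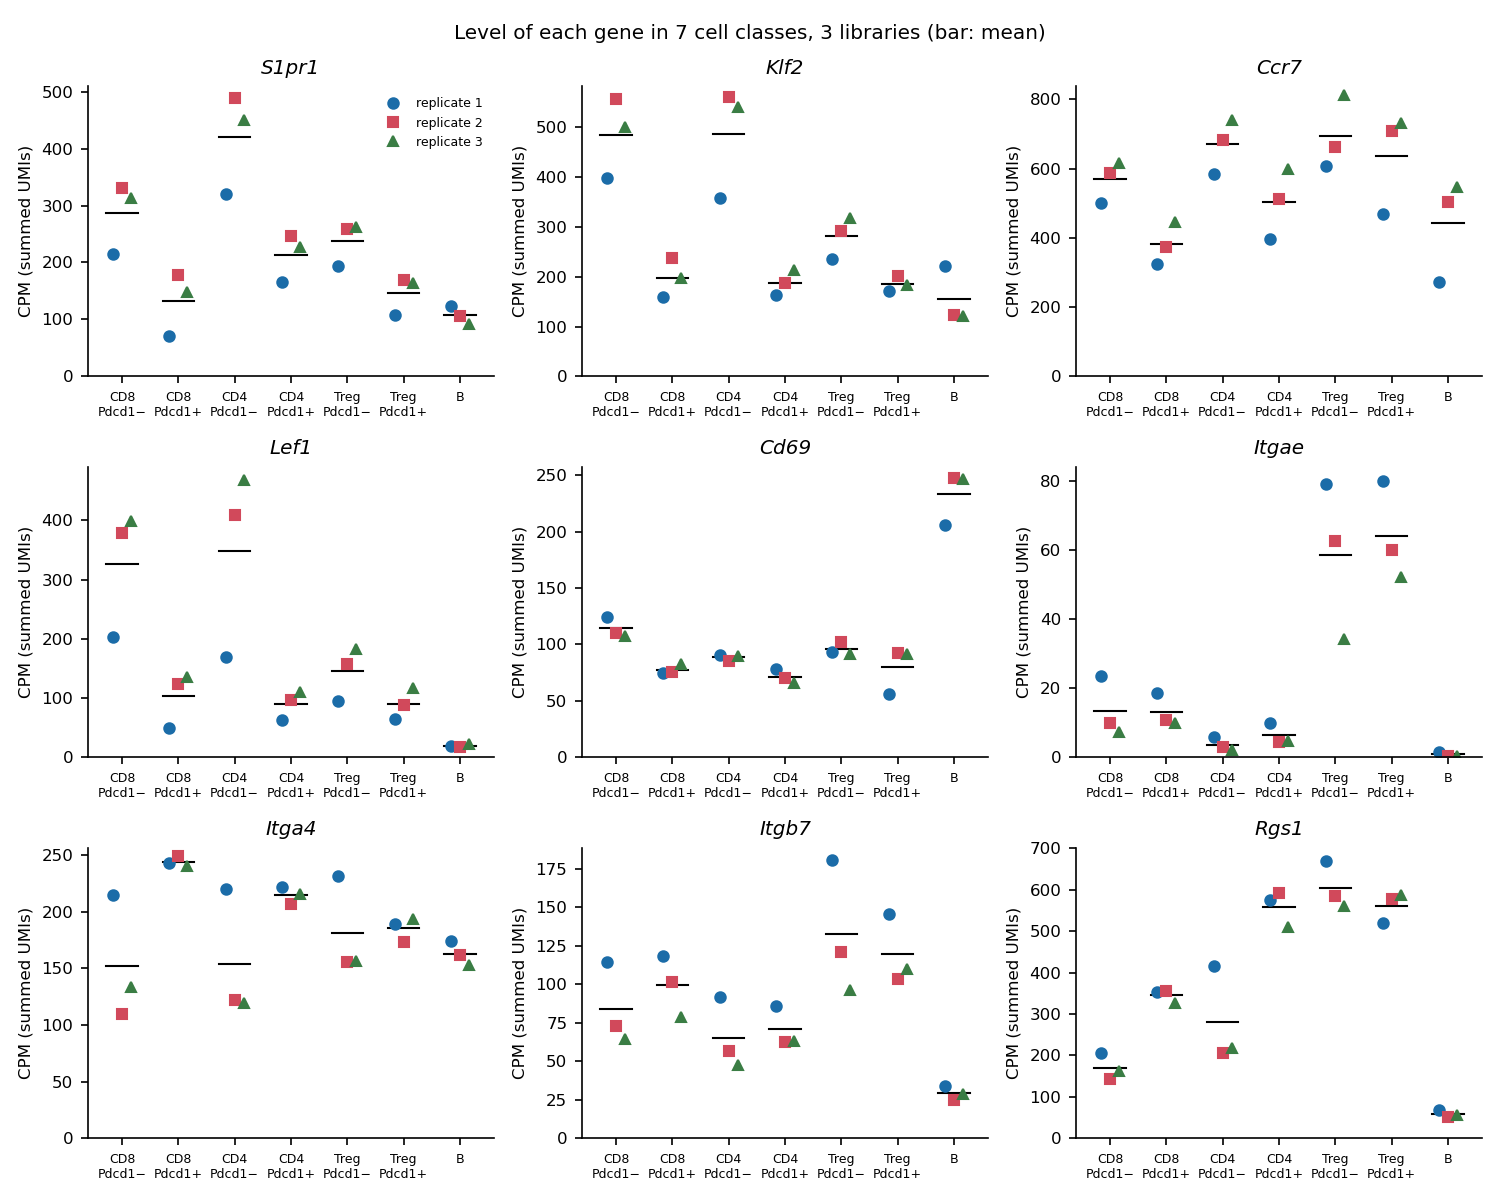
Level of each gene (CPM of summed UMIs, linear axis from 0) in the 7 classes. Points are the 3 libraries and bars their mean. S1pr1, Klf2 and Lef1 are highest in Pdcd1-negative CD8 and CD4 T cells, Cd69 in B cells at 205 to 248 CPM, and Itgae in Treg at 34.4 to 80.2 CPM.

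In CD4 T cells without Foxp3 UMIs the same split gave 6 of 9 members called, 1 higher and 5 lower, beside 11.9% of all genes tested (6.27% higher and 5.61% lower). The 4 recirculation genes and Cd69 were lower and Rgs1 was higher in Pdcd1-positive cells. The members' median log2 fold change was -0.47, against 0.01 over all genes. Without replicate 2, 3 members passed.

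S1pr1 was at 320, 489 and 450 CPM in Pdcd1-negative and at 166, 246 and 227 CPM in Pdcd1-positive CD4 T cells. The groups did not overlap and the gene was 2.18-fold lower (log2 fold change -1.12 ± 0.18 (SE), adjusted p = 0.000285). Klf2 was at 358, 561 and 542 CPM against 163, 187 and 213 CPM, a difference of 2.87-fold (log2 fold change -1.52 ± 0.22 (SE), adjusted p = 0.000133).

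Lef1 was at 169, 409 and 468 CPM in Pdcd1-negative and at 63.5, 96.8 and 111 CPM in Pdcd1-positive CD4 T cells. Replicate 1 had less than the other libraries in the Pdcd1-negative cells, yet the groups did not overlap. Lef1 had the largest fold change of the members here as well, at 4.14-fold lower (log2 fold change -2.05 ± 0.18 (SE), adjusted p = 1.23e-06).

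Ccr7 was at 585, 684 and 741 CPM in Pdcd1-negative and at 397, 513 and 600.2 CPM in Pdcd1-positive CD4 T cells. The groups overlapped across libraries, but each library showed the drop (log2 fold change -0.57 ± 0.11 (SE), adjusted p = 0.00116). Cd69 was at 90.5, 85.6 and 89.9 CPM against 77.9, 70.7 and 66.2 CPM, with no overlap and a log2 fold change of -0.47 ± 0.11 (SE, adjusted p = 0.00615). Neither passed without replicate 2 (Ccr7 -0.57, adjusted p = 0.0635, and Cd69 -0.48, adjusted p = 0.170) or without replicate 3 (Ccr7 -0.63, adjusted p = 0.0660, and Cd69 -0.40, adjusted p = 0.249).

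Rgs1 was at 415, 206 and 219 CPM in Pdcd1-negative and at 575, 592 and 511 CPM in Pdcd1-positive CD4 T cells. Replicate 1 was high among the Pdcd1-negative values, and the groups did not overlap. The difference was 1.88-fold (log2 fold change 0.91 ± 0.14 (SE), adjusted p = 0.000191), with an adjusted p of 0.0595 without replicate 2.

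Itga4 was at 220, 122 and 119.7 CPM in Pdcd1-negative and at 222, 207 and 215 CPM in Pdcd1-positive CD4 T cells, so the step was seen in replicates 2 and 3 and hardly in replicate 1. Its log2 fold change of 0.40 ± 0.14 (SE) did not pass (adjusted p = 0.0653) and was 0.62 without replicate 1 (adjusted p = 4.87e-05). Itgae was low at 2.17 to 6.02 CPM and 4.55 to 10.1 CPM (log2 fold change 0.68 ± 0.24 (SE), adjusted p = 0.0777). Itgb7 was at 47.4 to 91.9 and 62.8 to 86.0 CPM, with a log2 difference of 0.01 and a 95% interval of -0.19 to 0.22.

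Other markers also moved with the CD4 groups, without overlap. The Treg markers Il2ra, Ikzf2 and Ctla4 summed to 609 to 753 CPM in Pdcd1-positive and to 224 to 601 CPM in Pdcd1-negative CD4 T cells, against 1255 to 2032 CPM in Treg. The NK-cell markers summed to 56.4 to 72.7 against 9.19 to 31.7 CPM, the plasma-cell markers to 435 to 989 against 104 to 325 CPM and the gamma-delta T markers to 7.69 to 21.0 against 4.65 to 7.60 CPM. Their part in the results was not tested. Foxp3 is often missed in a single cell, and the part of Treg among these CD4 T cells was not tested. The test of whether the split differed between CD8 and CD4 T cells called none of the 9 members, with 0% of all genes called and 616 genes (5.47%) at an unadjusted p under 0.05 in edgeR, and with DESeq2 calling 6 genes and no member. Itgae alone of the members had an unadjusted p under 0.05, and its adjusted p was 0.823.

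In Treg none of the 9 members passed edgeR's adjusted threshold, where 0.187% of all genes did (21 genes), and 923 genes (8.20%) and 3 members had an unadjusted p under 0.05. DESeq2 called 2 members. In edgeR 3 passed without replicate 1, 3 with no count filter and 1 with the study's cell limits. The fit with the study's cell limits called fewer than 21 of all genes, and the others called more. S1pr1 was at 193, 259 and 263 CPM in Pdcd1-negative and at 108, 170 and 163 CPM in Pdcd1-positive Treg. The groups did not overlap, and the log2 fold change was -0.73 ± 0.19 (SE, adjusted p = 0.172). Klf2 was at 237, 292 and 319 CPM against 171, 201 and 183 CPM, also without overlap (log2 fold change -0.64 ± 0.22 (SE), adjusted p = 0.407).

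Lef1 was at 94.3, 158 and 183 CPM in Pdcd1-negative and at 64.3, 89.2 and 116 CPM in Pdcd1-positive Treg, lower in each library with overlapping groups (log2 fold change -0.73 ± 0.20 (SE), adjusted p = 0.211). These 3 genes passed in some other fits. S1pr1 and Lef1 passed in DESeq2 (adjusted p = 0.0238 and 0.0484), and S1pr1, Klf2 and Lef1 passed without replicate 1 (adjusted p = 0.000456, 0.00224 and 0.000456).

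The other members had 95% intervals that included 0 within Treg. Rgs1 was at 670, 584 and 560.4 CPM in Pdcd1-negative and at 520.4, 579 and 587 CPM in Pdcd1-positive Treg, a log2 difference of -0.11 with a 95% interval of -0.38 to 0.15. Ccr7 was at 607 to 812 and at 469 to 731 CPM (log2 difference -0.16, interval -0.38 to 0.05), and Cd69 at 91.5 to 102 and at 56.0 to 92.5 CPM (-0.23, interval -0.47 to 0.00). Itgae, Itga4 and Itgb7 had log2 differences of 0.18, 0.05 and -0.13, each with an interval that included 0.

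Whether the Treg split differed from the CD4 T split was tested directly. None of the members passed in edgeR (0.0266% of all genes did), and 4 had an unadjusted p under 0.05, beside 8.58% of all genes. Without replicate 1, 6 members passed, in a fit that also called more of all genes. The log2 difference between the splits was -1.02 ± 0.19 (SE) for Rgs1 (adjusted p = 0.0628), 1.32 ± 0.27 (SE) for Lef1 (adjusted p = 0.0906), 0.88 ± 0.31 (SE) for Klf2 (adjusted p = 0.346), 0.41 ± 0.15 (SE) for Ccr7 (adjusted p = 0.396) and 0.40 ± 0.26 (SE) for S1pr1 (adjusted p = 0.738). DESeq2 called Rgs1 (adjusted p = 0.000676) and Lef1 (adjusted p = 0.00271), and over the other fits the adjusted p ran from 1.40e-06 to 1 for Rgs1 and from 6.47e-08 to 1 for Lef1. Pdcd1-positive Treg had a median of 5375 to 11508 UMIs against 4232 to 7518 in Pdcd1-negative Treg, and were the deepest class in replicates 2 and 3. With only cells under 10000 UMIs the difference was -0.95 for Rgs1 (adjusted p = 0.127) and 1.18 for Lef1 (adjusted p = 0.334).

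**Figure D2:**
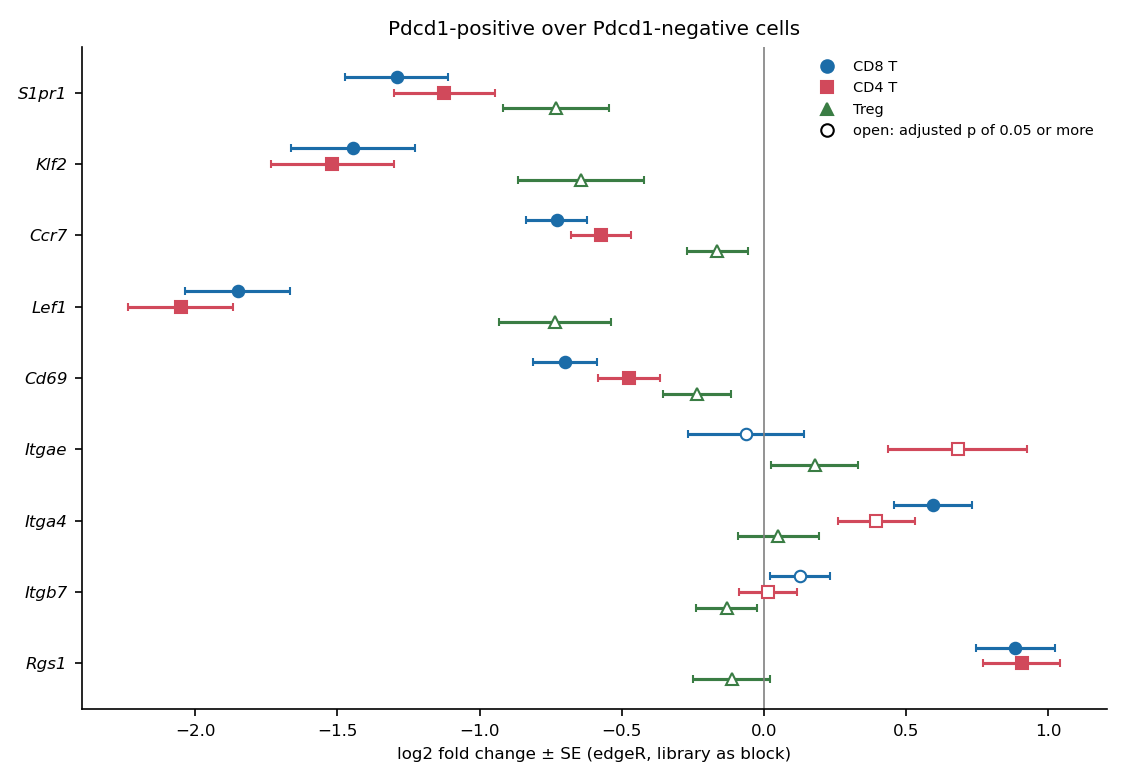
Log2 fold change (± SE) of each gene between Pdcd1-positive and Pdcd1-negative cells in CD8 T cells, CD4 T cells and Treg. Filled points passed an adjusted p of 0.05. Lef1 is farthest to the left in CD8 and CD4 T cells (-1.85 and -2.05), Rgs1 lies at 0.89 and 0.91 there and at -0.11 in Treg, and no Treg point is filled.

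The cells were next grouped by how many Pdcd1 UMIs they held, as a description chosen after the data had been seen. In CD8 T cells S1pr1 averaged 286 ± 62.2 CPM (SD, n = 3) at 0 Pdcd1 UMIs, 193 ± 77.5 at 1, 168 ± 78.0 at 2 and 103 ± 44.9 at 3 or more. Klf2 went from 486 ± 80.8 through 258 ± 29.3 and 267 ± 77.1 to 161 ± 39.7 CPM, and Lef1 from 327 ± 107 through 154 ± 63.4 and 114 ± 62.6 to 83.8 ± 40.8 CPM. For S1pr1, Klf2 and Lef1 the widest step in mean CPM was the first.

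Rgs1 in the same CD8 T cells went from 171 ± 31.3 through 275 ± 52.5 and 295 ± 41.9 to 382 ± 15.0 CPM. Itga4 went from 152 ± 54.8 through 216 ± 1.98 and 245 ± 35.4 to 252 ± 15.2 CPM. Cd69 averaged 129 ± 19.9 CPM in cells with 1 Pdcd1 UMI, against 114 ± 8.98 at 0. It was lower with 1 UMI in replicate 1 (106 against 125 CPM) and higher in replicates 2 and 3 (138 and 142 against 110 and 108 CPM). Cd69 was lower than at 0 with 2 UMIs (75.8 ± 16.5) and with 3 or more (61.1 ± 0.907). The groups held 2133, 239, 185 and 642 cells.

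In CD4 T cells S1pr1 went from 420 ± 88.7 through 291 ± 80.6 and 243 ± 65.9 to 168 ± 39.2 CPM and Rgs1 from 279.8 ± 117 through 421 ± 66.6 and 653 ± 64.9 to 605 ± 42.5 CPM. In Treg S1pr1 was 238 ± 39.2, 206 ± 20.1, 126 ± 43.7 and 133 ± 43.9 CPM. It was below the level at 0 in each library from 1 UMI on, and the mean fell most from 1 to 2 UMIs. Treg Rgs1 was 605 ± 57.7, 599 ± 64.1, 701 ± 132 and 488 ± 158 CPM, with spreads that overlapped at every step.

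**Figure D3:**
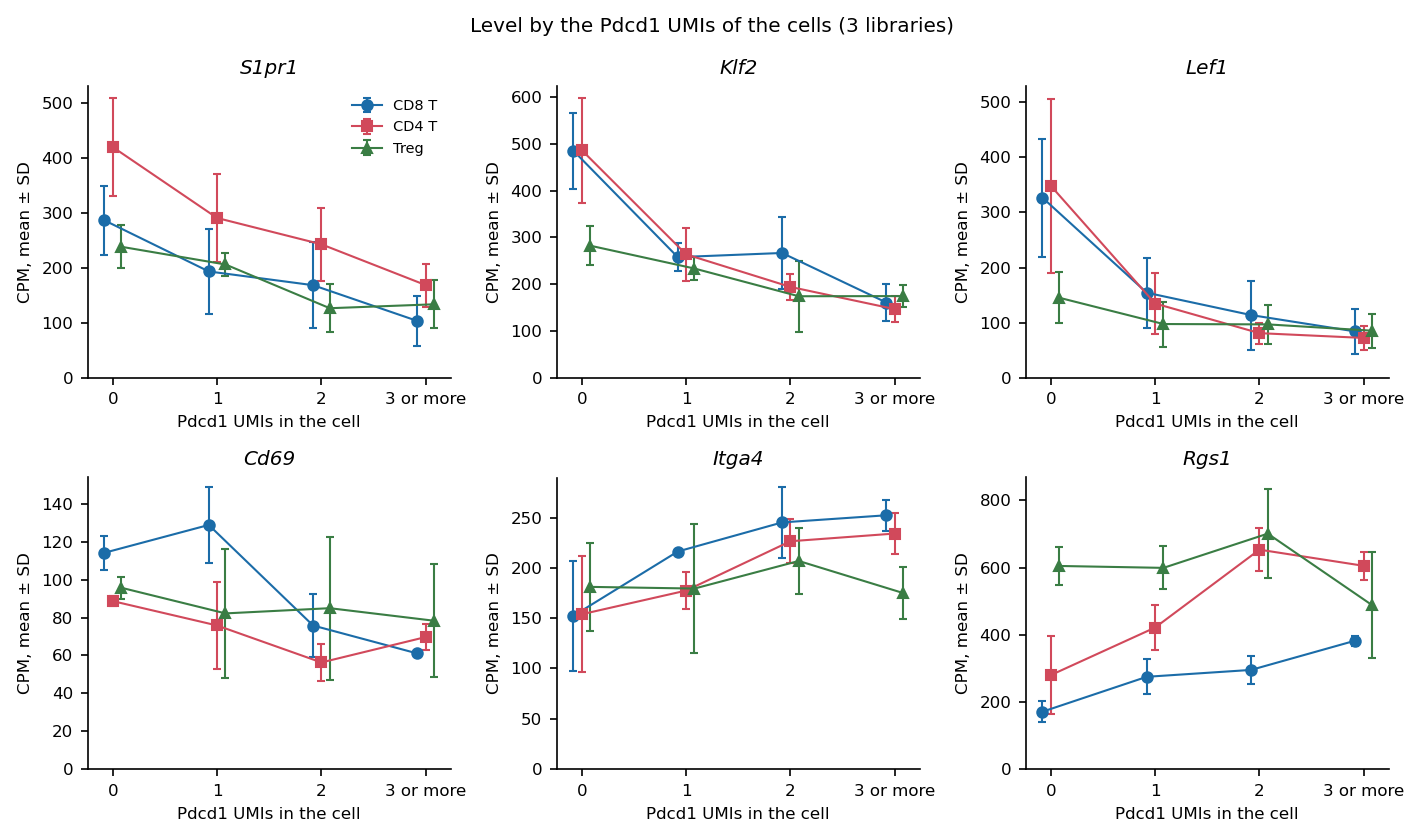
Mean level (CPM ± SD over 3 libraries, linear axis from 0) of 6 genes in cells with 0, 1, 2 and 3 or more Pdcd1 UMIs. S1pr1 declines in CD8 T cells from 286 to 103 CPM and in CD4 T cells from 420 to 168 CPM, while Rgs1 goes from 171 to 382 CPM in CD8 T cells, is highest at 2 UMIs in CD4 T cells (653 CPM) and lies between 488 and 701 CPM in Treg.

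Shares of cells with a UMI were taken after thinning every cell to 2000 UMIs. With 3 libraries the exact two-sided sign-flip test cannot give p under 0.25, so these shares are descriptions. In Pdcd1-negative CD8 T cells 39.0 ± 7.99% (SD, n = 3) held S1pr1, 51.7 ± 8.15% Klf2, 57.1 ± 3.95% Ccr7 and 42.4 ± 11.2% Lef1. In Pdcd1-positive CD8 T cells these were 20.4 ± 5.52%, 26.3 ± 2.50%, 34.4 ± 7.87% and 13.9 ± 7.39%. All 4 genes were found in fewer cells in each of the 3 libraries.

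Rgs1 was held by 19.9 ± 4.40% of Pdcd1-negative and 36.6 ± 4.77% of Pdcd1-positive CD8 T cells, a rise of 16.7 ± 0.994 percentage points. Cd69 was held by 16.2 ± 2.20% and 10.8 ± 2.26%, and Itga4 by 22.2 ± 9.81% and 34.3 ± 2.69%. Itgae was held by 2.76 ± 2.18% and 2.24 ± 0.897%, an order that changed with depth.

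In CD4 T cells S1pr1 was held by 51.7 ± 10.1% of Pdcd1-negative and 27.5 ± 4.63% of Pdcd1-positive cells. Lef1 dropped from 40.5 ± 17.6% to 12.6 ± 2.73% and Klf2 from 50.7 ± 9.47% to 26.1 ± 1.95%, while Rgs1 went from 26.3 ± 10.8% to 46.0 ± 5.46%. Cd69 was held by 11.7 ± 2.19% and 9.47 ± 1.27%. In Treg Rgs1 was held by 54.9 ± 8.27% and 58.5 ± 4.80% and Ccr7 by 56.8 ± 8.03% and 56.3 ± 7.81%, and S1pr1 by 32.6 ± 6.48% and 19.3 ± 6.74%. The Treg differences moved with the depth. That of Rgs1 was 3.61 points here, -2.26 points at 1000 UMIs and 9.66 points without thinning, and that of S1pr1 was -13.3, -5.95 and -4.85 points.

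As a reference for free RNA, 62 macrophage-like cells (at least 2 C1qa UMIs, none of Cd3e or Cd79a) were used, of which 60 could be thinned. Their median depth was 5370 to 13842 UMIs. S1pr1 and Itgae were found in 0 of 60, which allows a share of up to 5% (3 counts of 60; the exact binomial upper bound is 5.96%). Klf2 was found in 11 of 60 (18.3%, exact binomial 95% interval 9.52 to 30.4%). Cd69 was found in 4 of 60 (6.67%, interval 1.85 to 16.2%) and Rgs1 in 20 of 60 (33.3%, interval 21.7 to 46.7%). The Rgs1 share of Pdcd1-negative CD8 T cells was below that interval and that of Pdcd1-positive CD8 T cells within it. Macrophages can use Klf2 and Rgs1 themselves, so that these cells are no reference for either gene. Rgs1 was found in 4.71 to 6.01% of B cells, below every T class of every library. Among B cells, at a median of 4309 to 6784 UMIs, Itgae was found in 0.211 ± 0.130% and Lef1 in 2.65 ± 0.0735%. CD4 T cells held Itgae in 0.655 ± 0.446% (Pdcd1-negative) and 1.12 ± 0.815% (Pdcd1-positive), near the B-cell share, and no order between CD4 T and B cells is read from them.

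Each thinned cell was then placed in 1 of 4 patterns by whether it held a UMI of a recirculation gene (S1pr1, Klf2, Ccr7 or Lef1) and of a residency gene (Cd69, Itgae or Rgs1). Recirculation genes alone were found in 56.8 ± 7.61% of Pdcd1-negative and 36.0 ± 7.42% of Pdcd1-positive CD8 T cells. Residency genes alone were found in 9.18 ± 5.13% and 22.1 ± 5.72%. The first pattern was 20.7 ± 0.324 percentage points less frequent and the second 12.9 ± 1.39 points more frequent in Pdcd1-positive cells, with the same sign in all 3 libraries. Cells with neither group of genes were also more frequent in each library, at 8.68 ± 1.34% and 19.5 ± 3.20%, a difference of 10.8 ± 2.54 points.

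In CD4 T cells both shares moved in the same direction as in CD8 T cells. The recirculation pattern was 58.3 ± 14.2% in Pdcd1-negative and 32.8 ± 6.86% in Pdcd1-positive cells, and the residency pattern 7.77 ± 5.71% and 20.2 ± 5.01%. CD4 T cells with neither group of genes made up 6.70 ± 2.98% and 15.1 ± 1.47%, a difference of 8.40 ± 2.76 points. In Treg the values were 30.2 ± 8.53% and 24.7 ± 5.93% for the recirculation pattern and 14.0 ± 3.90% and 20.2 ± 5.88% for the residency pattern. Most common in Treg were cells with UMIs of both groups of genes, at 49.3 ± 4.88% and 47.6 ± 2.41%. When cells were thinned to 1000 UMIs the recirculation pattern was the most common in Treg, at 35.8% and 30.2%, and the residency pattern was 20.3% and 23.3%, while without thinning the latter was 7.79% and 8.07%.

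The residency pattern rested on Rgs1. With Cd69 and Itgae alone as residency genes, the difference between Pdcd1-positive and Pdcd1-negative cells was 1.62 points in CD8 T cells, 1.46 in CD4 T cells and 2.47 in Treg, in place of 12.9, 12.5 and 6.22 points. This pattern leaves out cells that also hold a recirculation gene. Cells with both then made up 14.9% of Pdcd1-negative and 7.81% of Pdcd1-positive CD8 T cells, and 9.80% and 6.65% of CD4 T cells. Cd69 itself was held by fewer Pdcd1-positive CD8 and CD4 T cells at this depth. Without thinning the Cd69 difference in CD4 T cells was -0.362 points, with Pdcd1-positive cells higher in 2 of 3 libraries. Without Rgs1 the most common pattern in Treg was also the recirculation pattern, at 62.2% and 54.2%, and cells with both made up 17.3% and 18.1%. The recirculation pattern still differed, by -16.7 points in CD8 and -17.7 points in CD4 T cells. In B cells 47.4 ± 2.83% had the recirculation pattern and 10.0 ± 0.856% the residency pattern.

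**Figure D4:**
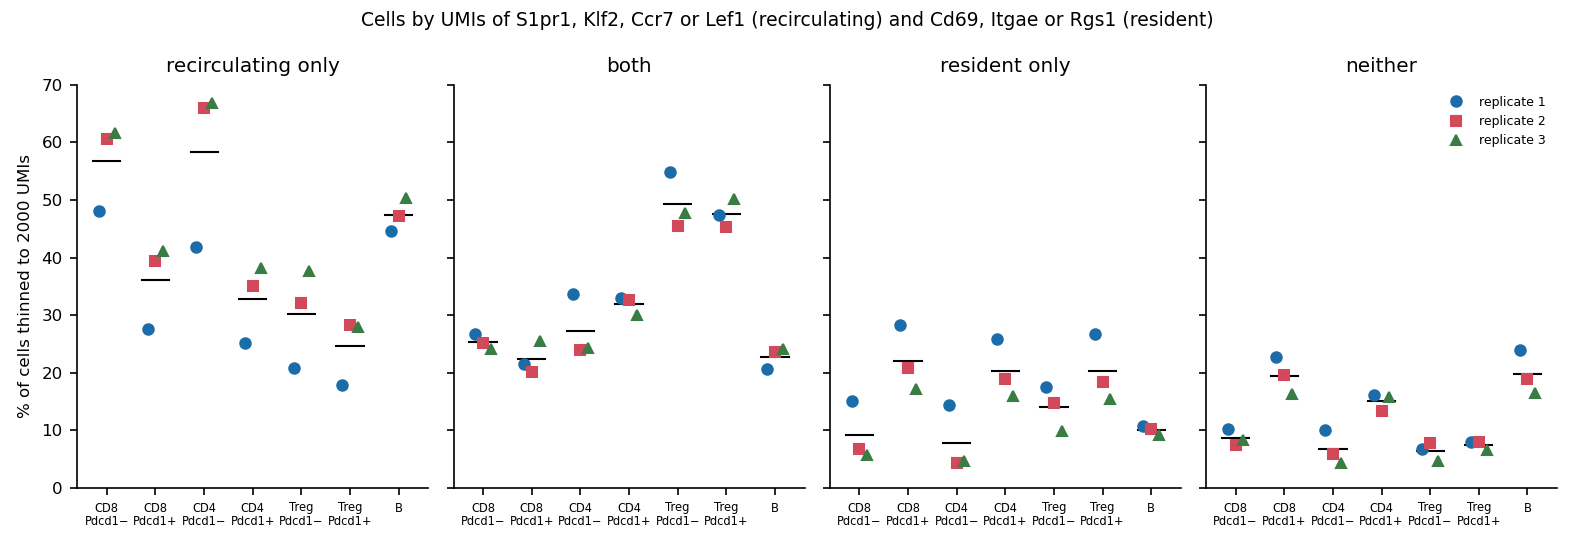
Share of cells (%, each thinned to 2000 UMIs) with UMIs of recirculation genes only, of both groups, of residency genes only and of neither, by class. Points are the 3 libraries and bars their mean. The recirculation-only share is lower in Pdcd1-positive than in Pdcd1-negative CD8 T cells (36.0 against 56.8%) and CD4 T cells (32.8 against 58.3%), and in Treg the group with both is the most common at this depth (49.3 and 47.6%).

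Pairs of members were also counted in the same thinned cells. S1pr1 and Klf2 were found together in 26.5 ± 7.09% of Pdcd1-negative and 10.3 ± 1.59% of Pdcd1-positive CD8 T cells, where the product of their shares gave 20.6% and 5.46%. The observed share exceeded the product in each library, by 1.24 to 1.47 times and 1.58 to 2.48 times. Klf2 with Lef1 in Pdcd1-positive CD4 T cells was likewise 1.59 to 1.84 times the product.

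S1pr1 and Cd69, whose proteins bind each other, were found together in 5.93 ± 1.97% of Pdcd1-negative CD8 T cells, against a product of 6.27%. In Pdcd1-negative CD4 T cells the values were 5.54 ± 0.577% and 5.89%, with ratios of 0.787 to 1.06 and 0.850 to 0.998 over the libraries. In Pdcd1-positive cells the ratio was 1.11 to 1.48 in CD8 T cells, 0.867 to 1.24 in CD4 T cells and 0 to 0.782 in Treg, on 31, 58 and 18 cells with both. S1pr1 with Rgs1 was below the product in Pdcd1-negative CD8 T cells, at 4.03 ± 0.701% against 7.53% (0.438 to 0.637 times), and closer to it in Pdcd1-positive cells, at 6.64 ± 0.879% against 7.30%. In the Pdcd1-negative cells the ratio was 0.835 to 0.840 without thinning and 0.416 to 0.775 at 1000 UMIs, where Pdcd1-positive cells spanned 0.55 to 1.50. At 2000 UMIs it was 0.764 to 0.852 in Pdcd1-negative CD4 T cells and 0.873 to 0.911 in Pdcd1-negative Treg. The S1pr1 and Cd69 ratios of Pdcd1-positive CD8 T cells, CD4 T cells and Treg moved with depth. Without thinning they were 1.08 to 1.23, 1.14 to 1.17 and 1.03 to 1.33, on 147, 310 and 211 cells. At 1000 UMIs they were 0.458 to 1.44, 0.878 to 1.40 and 0.940 to 1.625, so no direction is read from them.

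Itgae with Itgb7, the pair of the CD103 integrin, was found in 3.89 ± 3.05% of Pdcd1-negative and 4.79 ± 4.40% of Pdcd1-positive Treg (24 of 711 and 28 of 881 cells), and in 7 of 2131 and 8 of 1066 CD8 T cells. Itga4 was found more often with Itgb1 than with Itgb7 in CD8 T, CD4 T and B cells. In Pdcd1-positive CD8 T cells 15.5 ± 3.65% held Itga4 and Itgb1, against 5.96 ± 2.09% with Itga4 and Itgb7. The products of the shares were 15.1% and 5.77%, with Itgb1 found in 43.7% and Itgb7 in 16.8% of these cells. In Pdcd1-negative CD8 T cells the ratios to the product were 1.09 to 1.83 with Itgb1 and 0.917 to 1.37 with Itgb7. No preference of Itga4 for a partner is read from these shares. In B cells the 2 pairs were found in 2.50 ± 0.657% and 1.48 ± 0.671%, against products of 2.41% and 1.52%. In Treg the 2 pairs lay near each other, at 7.24 and 6.87% (Pdcd1-negative) and 8.08 and 7.69% (Pdcd1-positive). Without thinning, Itga4 was found less often with Itgb1 than with Itgb7 in Pdcd1-negative Treg (27.8 against 33.6%).

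Levels were then compared between the lymphocyte classes, each T class taken as the mean of its Pdcd1 groups. Treg differed from CD4 T cells in 5 of 9 members, 3 higher and 2 lower, beside 13.0% of all genes (7.25% higher and 5.80% lower), and 3 members passed without replicate 3. Itgae was higher in Treg by the widest margin of any member, at 79.2, 62.8 and 34.4 CPM in Pdcd1-negative and 80.2, 60.2 and 52.3 CPM in Pdcd1-positive Treg, against at most 10.1 CPM in CD4 T cells. No Treg value overlapped a CD4 T value, and the difference was 12.8-fold (log2 fold change 3.68 ± 0.13 (SE), adjusted p = 7.52e-13).

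Its partner Itgb7 was higher too, at 181, 121 and 96.1 CPM and 145, 104 and 110 CPM in the 2 Treg groups against 47.4 to 91.9 CPM in CD4 T cells (log2 fold change 0.83 ± 0.07 (SE), adjusted p = 2.30e-07). Rgs1 was higher in Treg by a log2 value of 0.53 ± 0.10 (SE, adjusted p = 0.000828), with an adjusted p of 0.0826 without replicate 3. In Pdcd1-negative cells Rgs1 averaged 605 CPM in Treg and 280 CPM in CD4 T cells. In Pdcd1-positive cells the Rgs1 means were 562 and 559 CPM, with Treg above CD4 T cells in 1 of 3 libraries. S1pr1 was lower (log2 fold change -0.74 ± 0.13 (SE), adjusted p = 0.000517), as was Lef1 (-0.69 ± 0.13 (SE), adjusted p = 0.00139). The Lef1 difference did not pass without replicate 2 (-0.60, adjusted p = 0.0855) or without replicate 3 (-0.68, adjusted p = 0.0597). Mean Lef1 was 145 CPM in Treg against 348 CPM in CD4 T cells among Pdcd1-negative cells, but 89.9 against 90.4 CPM among Pdcd1-positive cells. Klf2 lay just outside the threshold (-0.47 ± 0.15 (SE), adjusted p = 0.0514), and Ccr7, Cd69 and Itga4 had log2 differences of 0.13, 0.10 and -0.04.

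CD8 T cells differed from CD4 T cells in 5 of 9 members, 3 higher and 2 lower, beside 23.0% of all genes (11.2% higher and 11.8% lower). Without replicate 1, 8 members passed, and more of all genes passed as well. Itgae was 2.92-fold higher in CD8 T cells, at 7.37 to 23.5 CPM against 2.17 to 10.1 CPM (log2 fold change 1.55 ± 0.16 (SE), adjusted p = 4.99e-07), with the CD4 T levels resting on 78 and 91 UMIs in the Pdcd1-negative and Pdcd1-positive cells of all libraries. Itgb7 was higher by 0.54 ± 0.07 (SE, adjusted p = 1.79e-05) and Cd69 by 0.35 ± 0.08 (SE, adjusted p = 0.00254) on the log2 scale. Cd69 did not pass without replicate 2 (0.35, adjusted p = 0.0684) or without replicate 3 (0.33, adjusted p = 0.0744).

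The 2 genes that were lower in CD8 T cells act on G-protein signalling. S1pr1 was lower by a log2 value of -0.53 ± 0.13 (SE, adjusted p = 0.00388) and Rgs1 by -0.58 ± 0.10 (SE, adjusted p = 0.000144). Ccr7 missed the threshold (-0.21 ± 0.08 (SE), adjusted p = 0.0519), and Klf2, Lef1 and Itga4 had log2 differences of 0.14, 0.15 and 0.19 with 95% intervals of -0.16 to 0.44, -0.10 to 0.40 and -0.00 to 0.38.

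B cells differed from the mean of the 6 T classes in 8 of 9 members, 1 higher and 7 lower, where 62.2% of all genes passed (31.8% higher and 30.5% lower). Cd69 was the gene that was higher. B cells held 205, 248 and 246 CPM of it and T classes 56.0 to 125 CPM, with no overlap (2.96-fold, log2 fold change 1.56 ± 0.07 (SE), adjusted p = 1.87e-13). After thinning, 28.9 ± 2.07% of B cells held Cd69, and in no T class did the mean share pass 16.2%.

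Itgae was lowest against T cells, at 1.52, 0.426 and 0.51 CPM in B cells (log2 fold change -4.14 ± 0.21 (SE), adjusted p = 1.64e-12). Lef1 at 18.7, 18.0 and 21.7 CPM (-2.77 ± 0.17 (SE)), Rgs1 at 69.2, 52.0 and 56.8 CPM (-2.54 ± 0.13 (SE)) and Itgb7 at 34.0, 24.9 and 28.6 CPM (-1.49 ± 0.09 (SE)) were lower than in each T class of every library. S1pr1 was at 124, 105 and 92.1 CPM in B cells, near the levels of Pdcd1-positive CD8 T cells (log2 fold change against all T classes -0.84 ± 0.14 (SE)). Klf2 was at 222, 124 and 121 CPM, with replicate 1 apart (-0.65 ± 0.17 (SE), adjusted p = 0.00271), at -1.16 without replicate 1, and did not pass without replicate 2 (-0.41, adjusted p = 0.122) or without replicate 3 (-0.42, adjusted p = 0.122).

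Ccr7 in B cells was at 273, 504 and 548 CPM, and its call was kept in 5 of 11 other fits. The log2 fold change was -0.24 ± 0.08 (SE, adjusted p = 0.0154) with all libraries and -0.08 (adjusted p = 0.251) without replicate 1, and the adjusted p was 0.0667 without replicate 3. With cells thinned to 2000 UMIs before the split the log2 fold change was -0.0086 (adjusted p = 0.940), with the study's cell limits -0.07 (adjusted p = 0.676) and with cells under 10000 UMIs -0.14 (adjusted p = 0.274). Itga4 at 174, 162 and 153 CPM lay within the T-cell range, with a log2 difference of -0.02 and a 95% interval of -0.23 to 0.18.

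**Figure D5:**
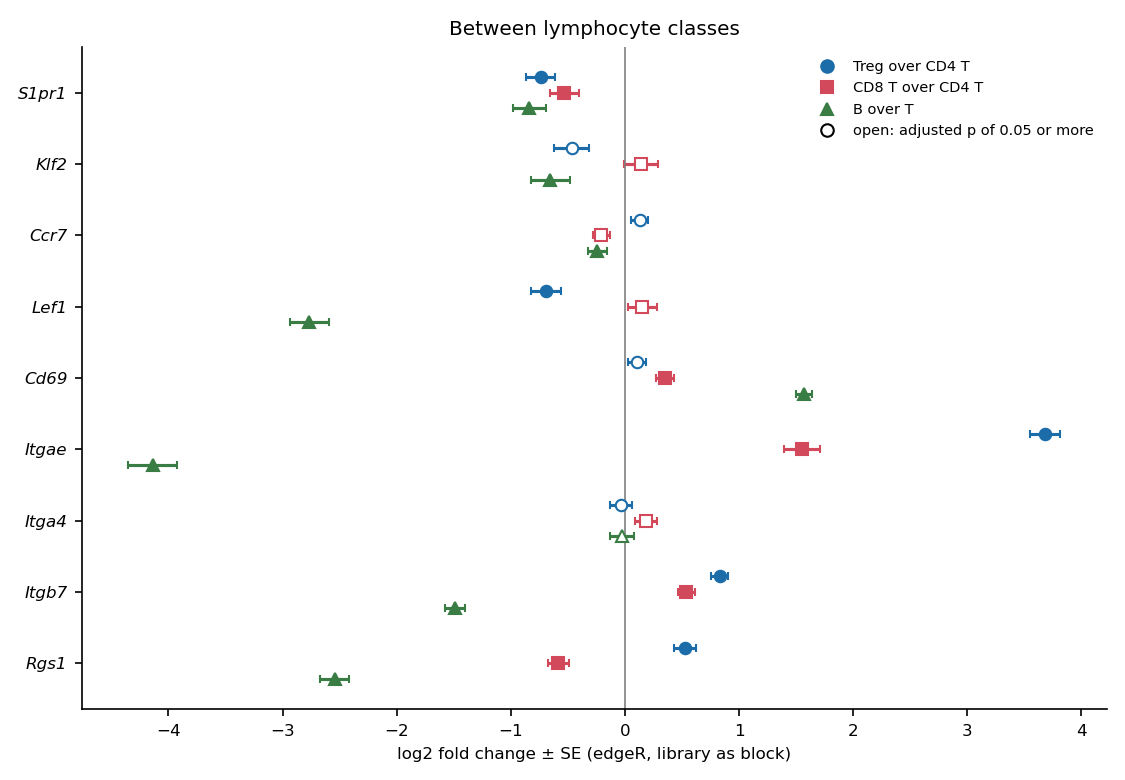
Log2 fold change (± SE) of each gene for Treg over CD4 T cells, CD8 T over CD4 T cells and B cells over the mean of the T classes. Filled points passed an adjusted p of 0.05. Itgae spans the widest range, from 3.68 in Treg over CD4 T cells to -4.14 in B over T cells, and Cd69 is the filled point to the right for B cells, at 1.56.

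Ordered by mean level, S1pr1 ran from Pdcd1-negative CD4 T cells (420 ± 88.7 CPM) through Pdcd1-negative CD8 T cells (286 ± 62.2), Pdcd1-negative Treg (238 ± 39.2), Pdcd1-positive CD4 T cells (213 ± 41.6), Pdcd1-positive Treg (147 ± 33.9) and Pdcd1-positive CD8 T cells (132 ± 55.3) to B cells (107, from 92.1 to 124). Every neighbouring pair overlapped across libraries, although in each library the first 4 steps kept this order. Klf2 had a gap below the Pdcd1-negative CD8 and CD4 T cells, which overlapped each other. Lef1 in Pdcd1-negative CD8 T cells lay above all Treg values, while Pdcd1-negative CD4 T cells reached down to 169 CPM in replicate 1, below the highest Treg value of 183 CPM, and Lef1 had a gap above B cells.

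Cd69 had gaps between B cells, Pdcd1-negative CD8 T cells and Pdcd1-negative Treg, and those Treg lay above Pdcd1-negative CD4 T cells (88.7 ± 2.66 CPM), although Pdcd1-positive Treg, at 56.0 to 92.5 CPM, overlapped both. Itgae had a gap below the Treg groups. Itga4 was highest in Pdcd1-positive CD8 T cells (244 CPM, from 241 to 249), above every value of the other classes. Pdcd1-positive CD4 T cells (215 ± 7.52 CPM) came next and overlapped the Pdcd1-negative T classes, which were high in replicate 1. Itgb7 had 1 gap, above B cells. Rgs1 had a gap below Pdcd1-positive CD4 T cells (559 ± 43.0 CPM), which overlapped the Treg groups, and a further gap above B cells. Pdcd1-negative CD4 T cells barely cleared Pdcd1-negative CD8 T cells, with a lowest Rgs1 value of 205.6 CPM against a highest of 205.3 CPM. All neighbours of Ccr7 overlapped.

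Across the 18 sums of T classes (6 classes in 3 libraries, which share mice and depth within a library), library-centred log2 levels of Klf2 and Lef1 followed each other most closely of all pairs of members (Pearson r = 0.99). S1pr1 had r = 0.89 with Lef1 and 0.87 with Klf2, and Itgae and Itgb7 had r = 0.92. Cd69 followed Klf2 (r = 0.76) and Lef1 (r = 0.76) more than Itgae (r = 0.00) or Rgs1 (r = -0.67). Rgs1 ran against Lef1 (r = -0.82) and Klf2 (r = -0.81).

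Over all 21 sums and 5273 genes with a mean of at least 20 CPM, the genes most like S1pr1 were Gimap6 (r = 0.96), Smchd1 (r = 0.95) and Clk1 (r = 0.94). For Klf2 they were Ppp2r5a, Pik3ip1 and Rras2 (r = 0.94 to 0.95), for Lef1 Galnt6, Grap2 and Kif23 (r = 0.97 to 0.98) and for Ccr7 Gbp5, Ifrd1 and Acot2 (r = 0.81 to 0.87). Cd69 was most like Ms4a4c, Gnl3 and Mphosph10 (r = 0.95 to 0.96) and Rgs1 most like Slc5a3, Ttc39c and Vps54 (r = 0.97 to 0.98). The integrin genes were most like Peak1, Acot9 and Igf2r for Itgae (r = 0.90 to 0.91), Nsmaf, Stat3 and Zeb2 for Itga4 (r = 0.83 to 0.88) and S100a10, Ccr2 and Gna15 for Itgb7 (r = 0.95). These are descriptions of 21 sums that share cell classes.

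Other genes of the same pathways were read from 5 lists. Like the members, these lists were chosen with earlier results of these data known, so their counts are descriptions and no independent evidence. Of 14 genes of recirculation and quiescence, 8 were lower and none higher in Pdcd1-positive CD8 T cells, and 10 were lower and none higher in Pdcd1-positive CD4 T cells, with median log2 fold changes of -0.73 and -1.12, where 10.6% and 11.9% of all genes passed in either direction. Igfbp4 was lower by -2.40 ± 0.30 (SE) and -2.28 ± 0.22 (SE), Tdrp by -1.67 ± 0.15 (SE) and -1.76 ± 0.14 (SE) in CD8 and CD4 T cells, and Dapl1 by -2.02 ± 0.34 (SE) in CD4 T cells. In Treg none of the 14 passed in edgeR or DESeq2, and 4 had an unadjusted p under 0.05 (median -0.27), beside 8.20% of all genes.

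Of the residency list, 16 of 18 genes could be tested. In CD8 T cells 6 were higher and 1 lower, and in CD4 T cells 7 were higher and none lower (medians 0.53 and 0.36). Of all genes, 10.6% and 11.9% passed in either direction. Cxcr6, a chemokine receptor of tissue T cells, was higher by 1.72 ± 0.22 (SE, adjusted p = 6.43e-05) and 2.06 ± 0.22 (SE, adjusted p = 8.95e-06), and Prdm1, which encodes the repressor BLIMP-1, by 1.51 ± 0.23 (SE) and 1.34 ± 0.17 (SE). Cd101 was higher in CD8 T cells (2.08 ± 0.60 (SE)) and Xcl1 in CD4 T cells (1.31 ± 0.33 (SE)). None passed in Treg in edgeR or DESeq2, and 5 had an unadjusted p under 0.05 (median 0.32), beside 8.20% of all genes.

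Of 15 tested genes of S1P signalling and turnover, 1 was lower in CD8 T cells, and 1 was higher and 2 lower in CD4 T cells, counts near the 10.6% and 11.9% of all genes. Sgpp1, an S1P phosphatase, was lower in both (-0.63 ± 0.15 (SE) and -0.47 ± 0.12 (SE)). Gna13, a G-protein subunit that S1PR2 uses, was higher (0.62 ± 0.12 (SE)) and Arhgef1, its effector, lower (-0.35 ± 0.09 (SE)) in CD4 T cells. The medians were 0.07 and 0.09. In Treg no gene of the list passed in either tool, with 1 at an unadjusted p under 0.05 (median 0.02), beside 8.20% of all genes.

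Of 18 adhesion genes, 6 were higher and 2 lower in CD8 T cells and 5 were higher and 2 lower in CD4 T cells (medians 0.16 and 0.12). For these and the RGS genes below, 10.6% and 11.9% of all genes passed in either direction. Itgav was higher in both (1.40 ± 0.21 (SE) and 1.15 ± 0.18 (SE)), and Itgb1, the other partner of Itga4, was higher in CD8 T cells (0.88 ± 0.15 (SE), adjusted p = 0.000744). Rasgrp2, which switches on the integrin regulator RAP1, was lower in both (-0.83 ± 0.21 (SE) and -0.83 ± 0.19 (SE)), and Itga6 was lower in CD4 T cells (-1.19 ± 0.13 (SE)). Of 8 other RGS genes tested, 3 were higher and 1 lower in CD8 T cells and 2 were higher in CD4 T cells (medians 0.46 and -0.02). Rgs16 was higher in both (1.53 ± 0.21 (SE) and 1.49 ± 0.21 (SE)), Rgs3 was higher (0.91 ± 0.24 (SE)) and Rgs10 lower (-1.03 ± 0.20 (SE)) in CD8 T cells, and Rgs2 was higher in CD4 T cells (0.36 ± 0.10 (SE)). No adhesion or RGS gene passed in Treg in either tool, with 3 and 1 at an unadjusted p under 0.05 (medians 0.04 and 0.16), beside 8.20% of all genes. In the test of the difference between the Treg and CD4 T splits, edgeR called no gene of any list. DESeq2 called 3 recirculation genes, 1 residency gene and 1 adhesion gene. In edgeR 7, 3, 4, 1 and 1 genes of the recirculation, residency, adhesion, RGS and S1P lists had an unadjusted p under 0.05, beside 8.58% of all genes. In the test between the CD8 and CD4 T splits neither tool called one, and 1, 5, 4, 1 and 0 had such a p in edgeR, beside 5.47% of all genes.

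Between classes, Treg against CD4 T cells, where 13.0% of all genes passed, gave 1 higher and 5 lower of the 14 recirculation genes, among them Tcf7 (-1.03 ± 0.13 (SE)), Igfbp4 (-1.42 ± 0.21 (SE)) and Tdrp (-1.19 ± 0.12 (SE)). It gave 2 higher and 1 lower of 16 residency genes (Cd101 1.72 ± 0.41 (SE), Prdm1 0.59 ± 0.13 (SE), Nr4a3 -0.38 ± 0.12 (SE)), 4 higher and 1 lower of 18 adhesion genes (Ccr9 1.50 ± 0.47 (SE), Itgav 1.05 ± 0.13 (SE), Itgb1 -0.94 ± 0.11 (SE)), 3 higher and 1 lower of 8 RGS genes (Rgs2 0.65 ± 0.07 (SE), Rgs3 0.54 ± 0.17 (SE), Rgs16 -0.51 ± 0.17 (SE)) and none of 15 S1P genes in edgeR or DESeq2 (3 at an unadjusted p under 0.05, beside 25.3% of all genes). Itgb1 was thus lower and Itgb7 higher in Treg.

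CD8 against CD4 T cells, where 23.0% of all genes passed, gave 4 higher and 3 lower recirculation genes (among them Dapl1 2.01 ± 0.22 (SE) and Igfbp4 -0.83 ± 0.19 (SE)), 5 higher and 8 lower residency genes (Xcl1 3.26 ± 0.21 (SE), Cdh1 2.31 ± 0.46 (SE), Ahr -1.54 ± 0.12 (SE)) and 0 higher and 3 lower S1P genes (S1pr3 -2.21 ± 0.54 (SE), Gna13 -0.86 ± 0.09 (SE), Sgpp1 -0.40 ± 0.10 (SE)). It gave 2 higher and 6 lower adhesion genes (Selplg 1.34 ± 0.11 (SE), Itgb3 -1.20 ± 0.17 (SE), Cytip -0.60 ± 0.05 (SE)) and 1 higher and 2 lower RGS genes (Rgs16 0.83 ± 0.15 (SE), Rgs2 -0.89 ± 0.07 (SE), Rgs10 -0.50 ± 0.14 (SE)). B against T cells, where 62.2% of all genes passed, gave 4 higher and 8 lower recirculation genes (Tcf7 -4.13 ± 0.19 (SE), Dapl1 -3.88 ± 0.36 (SE), Il7r -3.23 ± 0.19 (SE)), 2 higher and 14 lower residency genes (Icos -5.02 ± 0.17 (SE), Cxcr6 -4.64 ± 0.25 (SE), Xcl1 -3.35 ± 0.35 (SE)), 4 higher and 4 lower of 15 S1P genes, a smaller share than over all genes (S1pr3 3.43 ± 0.29 (SE), Spns2 2.63 ± 0.39 (SE), Arrb2 -1.74 ± 0.10 (SE)), 5 and 8 adhesion genes (Selplg -2.51 ± 0.14 (SE), Itga6 -2.45 ± 0.13 (SE), Itgb3 2.28 ± 0.11 (SE)) and 2 and 5 RGS genes (Rgs13 4.09 ± 0.47 (SE), Rgs16 -3.85 ± 0.23 (SE), Rgs10 -3.23 ± 0.19 (SE)).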

How the data were processed

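The authors aligned 10x 3' single-cell libraries with Cell Ranger 6.0.1 to mm10 and deposited raw UMI counts per gene and cell, 1 matrix for each of the 3 libraries (5844, 9537 and 11566 cells). The annotation version was not given in the sources used here. Cells and classes were chosen as described in the report, with no doublet caller. UMIs were summed per library and class (21 sums) and tested together with edgeR 4.0.16 in R 4.3.3 (filterByExpr, TMM, quasi-likelihood F test, Benjamini-Hochberg over 11259 genes, threshold 0.05), with library as a block, since its classes share mice. SE is the log2 fold change divided by the square root of F, and 95% intervals are normal intervals from it. Deviations of sums from their class means correlated within a library (Pearson r 0.21 to 0.65, 63 pairs) against -0.52 to 0.33 between libraries (126 pairs). The deviations of a class sum to 0 over its 3 libraries, which by itself pulls the values between libraries down, so those are no separate evidence. Libraries are the replicates, and each is a pool of mice. With library as a block, p-values measure how differences between classes vary from pool to pool, not the spread of levels between pools. The labels share a prefix between replicates 1 and 3, but which library belongs to which experiment was not given in the sources used here, so no within-experiment value was computed. CPM divides by the UMIs of a sum. Shares were taken from cells of at least 2000 UMIs thinned to 2000, which left out 0 to 17 cells of a class and library in T classes. Intervals and floors cover counting error only. Gene positions come from a GRCm38 annotation matched by gene ID.

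Alternatives were DESeq2 1.42.0, no count filter, no replicate block, leaving out each library, the study's cell limits (from 200 to 5000 genes, fewer than 6000 UMIs, mitochondrial share below 5% and ribosomal share above 5%), leaving out cells with RNA of other cell types, Pdcd1 of at least 2 UMIs against 0, cells thinned to 2000 UMIs before the split, for shares no thinning or thinning to 1000 UMIs, and, added after seeing the data, cells under 10000 UMIs. Named genes were the 9 members, of each other list the counts and up to 3 called genes of largest fold change (1 gene is not reported here by name), and for each member the 3 genes with the most similar log2 levels, leaving out members and the genes that define classes. The members and lists were chosen with earlier results of these data known. The test was run on simulated counts in which libraries differed only in depth and genes changed only in Pdcd1-positive CD8 T cells. That simulation could not check the block by library.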

Additional observations from a re-analysis of the deposited data

How the results depend on the processing

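Over 11 other fits of 6 comparisons for the 9 members and of the difference between Treg and CD4 T splits for 5 of them, less 1 value that DESeq2 did not give (Itgae in Treg), fold changes kept direction and side of the threshold in 555 of 648 cases, 42 passed only in the other fit, 29 passed only in the fit reported, and 22 reversed. S1pr1, Klf2, Lef1 and Rgs1 in CD8 T cells, Klf2 and Lef1 in CD4 T cells, Itgae and Itgb7 in both comparisons with CD4 T cells, Rgs1 in CD8 over CD4 T cells, and S1pr1, Lef1, Cd69, Itgae, Itgb7 and Rgs1 in B over T cells kept their calls in all 11 fits. The reversals were all of differences that had not passed, and the cause was not tested. With the study's cell limits Itgb7 was -0.25 in CD8 T cells and, in Treg, Itga4 was -0.14 and Rgs1 0.17. With cells thinned to 2000 UMIs before the split Itgb7 was -0.22 in CD8 and -0.16 in CD4 T cells and Rgs1 0.15 in Treg. With cells under 10000 UMIs Itgb7 was -0.042 in CD8 and -0.10 in CD4 T cells, and in Treg Ccr7 was 0.021 and Rgs1 0.20, and Itga4 in B over T cells was 0.018. Without cells holding RNA of other cell types Itgb7 in CD4 T cells was -0.027 and Itga4 in B over T cells 0.015, and with no count filter the latter was 0.026. Leaving out 1 library gave ranges of -0.24 to 0.073 for Itgae in CD8 T cells, -0.12 to 0.092 for Itgb7 in CD4 T cells, and, in Treg, -0.023 to 0.32 for Itgae and -0.066 to 0.18 for Itga4, and -0.089 to 0.055 for Itga4 in B over T cells. The share of CD4 T cells with Itgb7 reversed to -0.184 points when cells were thinned to 1000 UMIs. The difference in the share of CD8 T cells with Itgae was -0.517 points at 2000 UMIs, 0.424 points at 1000 UMIs and 0.0728 points without thinning. With no replicate block, that is without the pairing by library, the numbers of genes called were 212 (CD8 T split), 217 (CD4 T split), 1 (Treg split), 468 (Treg over CD4 T), 1183 (CD8 T over CD4 T) and 0 (Treg split minus CD4 T split), in place of 1192, 1338, 21, 1469, 2592 and 3. Without the block Ccr7 and Itga4 no longer passed in CD8 T cells, S1pr1, Ccr7 and Cd69 in CD4 T cells, S1pr1 and Lef1 in Treg over CD4 T cells, S1pr1 in CD8 over CD4 T cells and Ccr7 in B over T cells, and Itgb7 in CD4 T cells was -0.020. Leaving out 1 library gave 162 to 1721 genes for the CD8 T split, 123 to 2239 for the CD4 T split, 1 to 157 for the Treg split, 390 to 1973 for Treg over CD4 T, 1261 to 2887 for CD8 T over CD4 T, 0 to 70 for the difference between CD8 and CD4 T splits and 0 to 357 for that between Treg and CD4 T splits, the highest each time without replicate 1. The study's cell limits gave 643, 10, 851, 884 and 4532 genes for the CD8 T split, the Treg split, Treg over CD4 T, CD8 T over CD4 T and B over T (7005 as reported), and 2 and 1 for the differences between splits. Thinning before the split gave 593, 4, 846 and 1260 genes for the CD8 T split, the Treg split, Treg over CD4 T and CD8 T over CD4 T, and 2 and 57 for the differences. DESeq2 gave 53 genes for the Treg split and 6 and 80 for the differences, and no count filter gave 143, 80 and 217. Cells under 10000 UMIs gave 4, 12 and 21, and leaving out cells with RNA of other cell types 2 for the Treg split and 0 for the difference from CD4 T cells, for which Pdcd1 of at least 2 UMIs gave 14. Unthinned cells gave -18.8 points for the recirculation pattern in CD8 T cells and 10.1, 9.95 and 0.276 points for the residency pattern in CD8 T cells, CD4 T cells and Treg. Without Rgs1 the recirculation pattern differed by -16.7 and -17.7 points in CD8 and CD4 T cells, and the residency pattern by 1.62, 1.46 and 2.47 points. The libraries are 3 pools from 2 experiments, replicate 1 has the fewest UMIs, and Treg have the fewest cells of the T classes.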
